A study of Homo sapiens with 8 samples.

Results

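The comparison set the NFYB CUT&RUN peaks of RH30 cells edited with the guide sgCCAAT2a against those of cells edited with sgCCAAT2b, with 1 library for each guide. A peak was a member when it overlapped no peak of the other edited list by at least 1 bp, and a gene when only 1 of the 2 edited lists held a peak within 1000 bp of either of its ends. By this rule 805 of the 5009 peaks of the pair were members, 349 in the sgCCAAT2a list and 456 in the sgCCAAT2b list. Of 20037 protein-coding genes, 155 (0.774%) had a peak in the sgCCAAT2a list only and 230 (1.15%) in the sgCCAAT2b list only. Each group was then divided by whether both control libraries, sgCtrl1 and sgCtrl2, also had a peak.

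NF-Y is a trimeric transcription factor made of NF-YA, NF-YB and NF-YC. NF-YB and NF-YC pair through histone-fold domains, and NF-YA reads the CCAAT box, a short motif common in the proximal promoters of cell cycle, lipid, endoplasmic reticulum and housekeeping genes. PAX3 encodes a paired-box factor of the muscle lineage, and in PAX3-FOXO1-positive rhabdomyosarcoma its promoter drives the fusion gene.

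RH30 and RH4 are human rhabdomyosarcoma cell lines that carry PAX3-FOXO1. Their titles name the libraries used here RH30, while the cell line field of the same libraries says RH4, and they are called RH30 here after the titles and the design text. All 4 libraries came from cells that carried an inducible cytosine base editor (written seBE in the titles, a term the labels do not explain), were transduced with a guide, selected with blasticidin, given rapamycin to switch editing on and harvested 8 days later. The groups were sgCtrl1, sgCtrl2, sgCCAAT2a and sgCCAAT2b, each of 1 library profiled with an NFYB antibody. The controls thus carried the same editor, drug selection and rapamycin as the edited cells, and the labels do not say whether cells were clones or pools. CUT&RUN cuts and releases DNA next to an antibody-bound protein, and peaks mark where the released fragments pile up. RH4 lists for NFYB and NFYC from unedited cells served as an outside reference. Because each guide had 1 library, no difference below has a replicate check or a p-value, and the intervals are exact (Clopper-Pearson) 95% limits that cover counting error only.

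The edited libraries were the deeper ones and gave the shorter lists. The sgCCAAT2a library had 21188491 tags and 2451 peaks, and the sgCCAAT2b library 28188178 tags and 2558 peaks. The sgCtrl1 library had 13920126 tags and 4025 peaks, and the sgCtrl2 library 10479544 tags and 6687 peaks. Tags inside peaks made up 1.22% and 1.46% of the sgCCAAT2a and sgCCAAT2b libraries, against 2.40% and 3.10% of sgCtrl1 and sgCtrl2. The lowest tag number accepted for a peak by the Poisson step was 5 in sgCCAAT2a and 6 in sgCCAAT2b. Peaks were 152 bp wide in sgCCAAT2a and 163 bp in sgCCAAT2b. The part that depth, tag threshold and peak width had in which peaks were listed was not tested.

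PAX3 itself had a peak in both control lists and in neither edited list. The sgCtrl1 peak at chr2:222299014-222299202 stood at place 545 in its file and the sgCtrl2 peak at chr2:222299005-222299201 at place 703, where place 1 is the first line. Both lay just upstream of the PAX3 start, so the 2 edited lists do not differ at the targeted promoter. FOXO1, the other fusion partner, had a peak in only 1 of the RH30 lists, sgCtrl2, at place 2035. The RH4 NFYC list also had a FOXO1 peak, at place 909.

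The reference stretches below show CCAAT boxes at the PAX3 promoter and under the edited peaks of members the results return to. These members are RAB8A, PCNT, CLSPN and XBP1 (sgCCAAT2a only, both controls) and HAGH, PCNA, SRP9 and CCNB1 (sgCCAAT2b only, both controls). SPRYD3, BUB1 and PDIA4 (not in both controls) are shown as well. The stretches come from RefSeq (GRCh38.p14), are written 5′ to 3′ on the gene's strand and end upstream of the start site. CCAAT or its reverse complement ATTGG stands in capitals. The labels do not say which PAX3 box each guide edited.
PAX3 (chr2:222299047-222299136, minus strand): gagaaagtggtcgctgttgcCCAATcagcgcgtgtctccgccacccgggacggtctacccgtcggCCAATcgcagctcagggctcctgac
RAB8A (chr19:16111662-16111716, plus strand): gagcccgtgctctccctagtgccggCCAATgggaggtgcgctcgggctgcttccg
PCNT (chr21:46323956-46324010, plus strand): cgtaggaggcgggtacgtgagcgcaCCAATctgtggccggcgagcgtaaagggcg
CLSPN (chr1:35770005-35770112, minus strand): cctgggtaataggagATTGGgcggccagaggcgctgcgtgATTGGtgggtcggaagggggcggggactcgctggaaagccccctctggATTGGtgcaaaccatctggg
XBP1 (chr22:28800602-28800677, minus strand): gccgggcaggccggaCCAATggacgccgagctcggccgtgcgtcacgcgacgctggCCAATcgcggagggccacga
HAGH (chr16:1826829-1826883, minus strand): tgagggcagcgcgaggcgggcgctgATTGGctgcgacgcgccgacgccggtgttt
PCNA (chr20:5126623-5126672, minus strand): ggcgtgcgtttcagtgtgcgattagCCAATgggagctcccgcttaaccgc
SRP9 (chr1:225777770-225777824, plus strand): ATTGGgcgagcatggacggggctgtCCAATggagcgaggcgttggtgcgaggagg
CCNB1 (chr5:69167048-69167114, plus strand): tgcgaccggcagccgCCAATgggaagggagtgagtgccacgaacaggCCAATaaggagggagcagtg
SPRYD3 (chr12:53079418-53079472, minus strand): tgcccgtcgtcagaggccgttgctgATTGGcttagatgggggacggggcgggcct
BUB1 (chr2:110678098-110678157, minus strand): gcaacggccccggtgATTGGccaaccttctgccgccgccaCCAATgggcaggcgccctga
PDIA4 (chr7:149028697-149028740, minus strand): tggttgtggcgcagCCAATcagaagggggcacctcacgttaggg
The PAX3 stretch holds 2 boxes, whose first bases lie at -118 and -73 from the start. CLSPN has 3 boxes in its stretch, and XBP1, SRP9, CCNB1 and BUB1 have 2 each. These are matches in the reference, not measured sites.

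Most peaks of the edited pair were shared. Of the sgCCAAT2a peaks, 85.8% (84.3 to 87.1%) overlapped a sgCCAAT2b peak, and 82.2% (80.6 to 83.6%) of the sgCCAAT2b peaks overlapped a sgCCAAT2a peak. The control pair shared 64.4% of the sgCtrl1 and 38.8% of the sgCtrl2 peaks. Over genes, the edited pair shared 1628 of the 2013 genes with a peak in either list (80.9%), against 62.2% for the control pair. The other pairings of the 4 libraries shared from 46.5 to 68.7% of genes. The lists held 2524 genes in sgCtrl1, 3364 in sgCtrl2, 1783 in sgCCAAT2a and 1858 in sgCCAAT2b. At these unequal lengths no other pair could have reached 80.9%, so the pairs cannot be ranked by this share. The 38.8% of sgCtrl2 peaks is limited in the same way, as sgCtrl1 had 4025 peaks and sgCtrl2 6687.

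Members split unevenly by control state. The sgCCAAT2b list held 220 peaks that both controls had and sgCCAAT2a lacked, and the sgCCAAT2a list held 115 that both controls had and sgCCAAT2b lacked, a ratio of 1.91. The numbers without a peak in both controls were nearly equal, 234 in the sgCCAAT2a list and 236 in the sgCCAAT2b list. Peaks of both controls thus made up 33.0% (28.0 to 38.2%) of the sgCCAAT2a-only and 48.2% (43.6 to 52.9%) of the sgCCAAT2b-only peaks, and about 79% of the shared ones (79.2% of 2102 in the sgCCAAT2a list and 79.4% of 2102 in the sgCCAAT2b list).

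**Figure D1:**
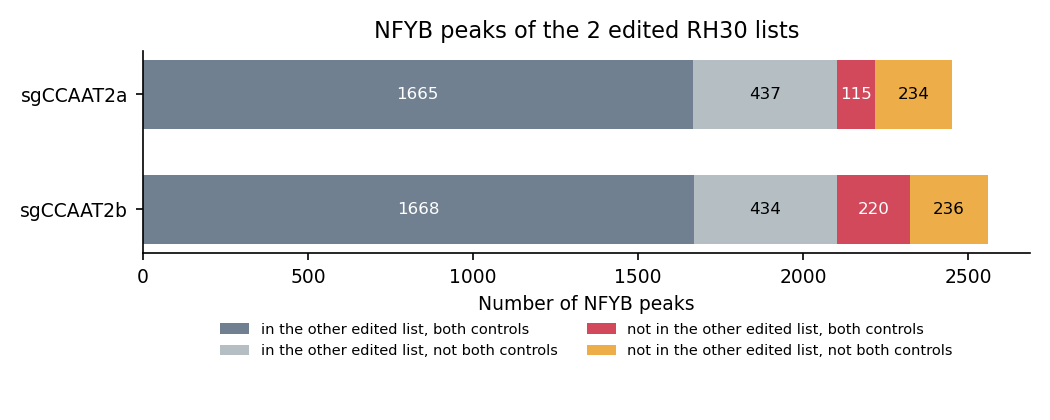
Number of NFYB peaks (horizontal axis) in the sgCCAAT2a and sgCCAAT2b lists, 1 library each, divided by presence in the other edited list and in both controls. The red part, peaks of both controls missing from the other edited list, holds 115 sgCCAAT2a and 220 sgCCAAT2b peaks, and the yellow part 234 and 236.

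The members without a peak in both controls were a mixture. In the sgCCAAT2a list, 66 overlapped a sgCtrl1 peak only, 43 a sgCtrl2 peak only and 125 neither. In the sgCCAAT2b list, 73 overlapped a sgCtrl1 peak only, 49 a sgCtrl2 peak only and 114 neither. The sgCtrl1 count was the larger in both lists, although sgCtrl1 is the shorter control list.

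Members stood late in their files. Peak heights were not analysed here, since every peak carries the same score of 1, and the order of the file served as a stand-in for rank. The median place of the sgCCAAT2a-only peaks was 1711 of 2451 for those in both controls and 2110 for the rest, against 1144 for shared peaks. The median place of the sgCCAAT2b-only peaks was 1741 of 2558 for those in both controls and 2312 for the rest, against 1094 for shared peaks. Of the sgCCAAT2a peaks, 4.07% (1.97 to 7.35%) were members in the first 10% of the file and 45.3% (39.0 to 51.8%) in the last 10%, and of the sgCCAAT2b peaks 3.52% (1.62 to 6.57%) and 59.6% (53.3 to 65.7%).

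The classes filled different stretches of the files. In the last 10%, 96 of 111 sgCCAAT2a members and 122 of 152 sgCCAAT2b members had no peak in both controls. The excess of sgCCAAT2b-only peaks with both controls sat in the middle of the file. With each file cut into 10 equal bins, bins 5 to 8 of the sgCCAAT2b file held 27, 36, 37 and 47 of them, against 12, 12, 11 and 22 in the same bins of the sgCCAAT2a file. In bins 1 to 3 both files held 5 or fewer members with both controls per bin. Members without both controls numbered 6, 16 and 23 in these bins of the sgCCAAT2a file, and 6, 8 and 3 in those of the sgCCAAT2b file.

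**Figure D2:**
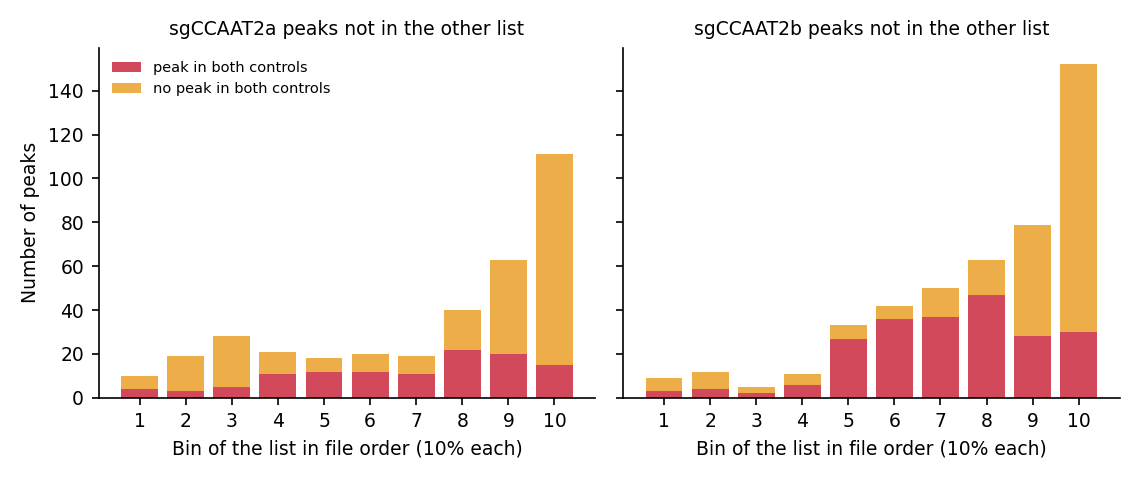
Number of member peaks (vertical axis) in each of 10 equal bins of the sgCCAAT2a (left) and sgCCAAT2b (right) file, in file order, with peaks of both controls in red and the rest in yellow. Yellow is largest in bin 10 (96 and 122 peaks), and red is higher in bins 5 to 8 of sgCCAAT2b (27 to 47) than of sgCCAAT2a (11 to 22). In bins 1 to 3 yellow holds 6, 16 and 23 sgCCAAT2a and 6, 8 and 3 sgCCAAT2b peaks.

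Among the earliest members, most were neighbours rather than peaks at separate loci. Of the 19 members in the first 10% of either file, 15 lay within 1000 bp of a peak of the other edited list. They included members on the unplaced contig Un_KI270438v1 (places 28, 116 and 164 in sgCCAAT2a, 49 and 84 in sgCCAAT2b). A chromosome 16 pair (places 10 and 18) was also among them. None of these contig and chromosome 16 members lay at a gene end or overlapped an RH4 peak. At KMT5C, which encodes a histone H4 lysine methyltransferase, the sgCCAAT2a peak (chr19:55339421-55339573, place 80) and the sgCCAAT2b peak (chr19:55339588-55339750, place 63) were 14 bp apart. At RBM15, an RNA-binding protein gene, the edited peaks stood at places 13 and 8 and were 101 bp apart, and at EVI5L they stood at places 195 and 187 and were 83 bp apart. Both genes therefore counted as shared at the gene level while all 4 peaks counted as members.

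The 4 early members with no near neighbour were SPRYD3 and a peak outside the gene windows (chr2:238288822-238288974, place 189) in the sgCCAAT2a list, and SFXN5 and chr17:22521323-22521485 (place 34) in the sgCCAAT2b list. The chr2 peak overlapped peaks of both RH4 lists and of no control. The chr17 peak overlapped none of the control or RH4 peaks.

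Over all members, near neighbours were the minority. A peak of the other edited list lay within 1000 bp of 12 of the 115 and 35 of the 234 sgCCAAT2a-only peaks, and of 11 of the 220 and 23 of the 236 sgCCAAT2b-only peaks. The median gap ran from 81643 bp (sgCCAAT2a only, not both controls) to 163356 bp (sgCCAAT2b only, not both controls). Contigs outside the primary chromosomes held 20 and 13 of the members without both controls, and 0 and 3 of those with both.

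At the threshold itself, the smallest overlap that made a peak at a gene end shared was 1 bp, at SLC2A1 (the glucose transporter GLUT1), and UBB, a ubiquitin gene, was shared by an overlap of 15 bp. Among members at gene ends, the smallest gap was 1 bp, at HYOU1 (an endoplasmic reticulum chaperone), followed by 2 bp at CTDSP2 and 9 bp at ATP5F1B. Away from gene ends, a pair on chromosome 5 abutted with a gap of 0 bp (chr5:97855227-97855379 in sgCCAAT2a) and a pair on chromosome 16 lay 8 bp apart.

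Members that both controls shared lay mostly at gene ends. Within 1000 bp of a protein-coding gene end were 73.0% (64.0 to 80.9%) of the sgCCAAT2a-only and 74.1% (67.8 to 79.7%) of the sgCCAAT2b-only peaks with both controls. The peaks shared by all 4 lists gave 70.5% on the sgCCAAT2a side and 70.3% on the sgCCAAT2b side, within both intervals. Without both controls the share was 32.9% (26.9 to 39.3%) for sgCCAAT2a-only and 19.9% (15.0 to 25.6%) for sgCCAAT2b-only peaks, 2 intervals that do not overlap. Shared peaks of the edited pair without both controls gave 34.6%. Over members of either control state the share was 46.1% in each list. With edited lists of equal length it was 43.1% for sgCCAAT2a-only and 53.0% for sgCCAAT2b-only peaks, and the split by control state was not recomputed there. Of the sgCCAAT2b-only peaks without both controls, 25.4% lay inside a gene beyond its ends and 54.7% outside genes, and of the sgCCAAT2a-only ones 18.8% and 48.3%.

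Overlap with the RH4 lists followed the same division. An RH4 NFYB peak was overlapped by 73.0% (64.0 to 80.9%) of sgCCAAT2a-only and 77.7% (71.6 to 83.0%) of sgCCAAT2b-only peaks with both controls. For peaks of all 4 lists the share was 85.0% (83.2 to 86.7%) on the sgCCAAT2a side, above both intervals. Among members in neither control, the overlap was 28.0% (20.3 to 36.7%) for sgCCAAT2a and 14.9% (8.93 to 22.8%) for sgCCAAT2b, and NFYC gave 31.2% and 24.6%.

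At the gene level the direction depended on the controls. Of 2259 genes with a peak in both controls, 1497 (66.3%) had a peak in both edited lists and 489 (21.6%) in neither. The sgCCAAT2b list alone held 187 of them (8.28%, 7.17 to 9.49%, at 159 loci) and the sgCCAAT2a list alone 86 (3.81%, 3.06 to 4.68%, at 79 loci). Of the 17778 genes without a peak in both controls, the sgCCAAT2a list alone held 69 (0.388%, 0.302 to 0.491%) and the sgCCAAT2b list alone 43 (0.242%, 0.175 to 0.326%). The ratio of sgCCAAT2b-only to sgCCAAT2a-only genes was 2.17 with both controls and 0.62 without. For 80 of the 86 and 181 of the 187 genes, the edited peak itself overlapped peaks of both controls. For the others the peak of at least 1 control lay elsewhere in the windows.

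The 8 earliest sgCCAAT2a-only loci with both controls stood between places 411 and 750 of their file. RAB8A, a small GTPase of vesicle transport, had its peak at chr19:16111564-16111716, centred at -249 bp from its start (minus is upstream), at place 411 in sgCCAAT2a, 434 in sgCtrl1 and 241 in sgCtrl2. SOCS5, a suppressor of cytokine signalling, stood at place 519 in sgCCAAT2a, 546 in sgCtrl1 and 325 in sgCtrl2. PCNT, which encodes the centrosome scaffold pericentrin and shares its peak with C21orf58, stood at places 641, 487 and 335 in the same order of libraries.
CLSPN encodes claspin, a mediator of the replication checkpoint. Its peak at chr1:35769973-35770125 stood at place 677 in sgCCAAT2a, 477 in sgCtrl1 and 380 in sgCtrl2. PIGA, needed for the first step of GPI anchor synthesis, stood at places 750, 696 and 787. The nearest sgCCAAT2b peak was 56765 bp away at RAB8A and 1682444 bp away at PIGA, and it lay between these gaps at SOCS5, PCNT and CLSPN.
DMXL1 (place 495 in sgCCAAT2a), SLC25A35 (538), a mitochondrial carrier gene, and SERTAD3 (607) completed the first 8. At SERTAD3 the sgCCAAT2a peak lay at the start site and overlapped neither control peak, since both control peaks lay inside the gene at the edge of the start window. The nearest sgCCAAT2b peak was 1002 bp away. At SLC25A35 the sgCtrl2 peak lay at the opposite end of the gene.

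The 8 earliest sgCCAAT2b-only loci with both controls stood between places 403 and 892 of their file. PCNA, the sliding clamp of DNA replication, shares a peak with CDS2 at chr20:5126596-5126758, centred at -55 bp from the PCNA start, and it stood at place 731 in sgCCAAT2b, 730 in sgCtrl1 and 561 in sgCtrl2. CENPM, a centromere protein gene that shares its peak with SMIM45, stood at places 403, 500 and 474. CDCA8, which encodes borealin of the chromosomal passenger complex and shares its peak with AIRIM, stood at places 825, 597 and 670.
SRP9 encodes a subunit of the signal recognition particle and SPCS2 one of the signal peptidase complex. SRP9 stood at place 810 in sgCCAAT2b, 655 in sgCtrl1 and 475 in sgCtrl2. SPCS2, which shares its peak with XRRA1, stood at places 892, 882 and 1009.
HAGH, the glyoxalase II gene that shares a peak with FAHD1, stood at place 489 in sgCCAAT2b, 332 in sgCtrl1 and 87 in sgCtrl2. SFN, which encodes 14-3-3 sigma, stood at places 505, 454 and 270, with its peak at the far end of the gene. EXOSC5, an RNA exosome subunit gene that shares its peak with BCKDHA, stood at places 699, 665 and 1456. All 8 loci lacked a sgCCAAT2a peak in the window, and the nearest one was 1629 bp away at CDCA8 and 41977 bp or more away at the other 7.

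**Figure D3:**
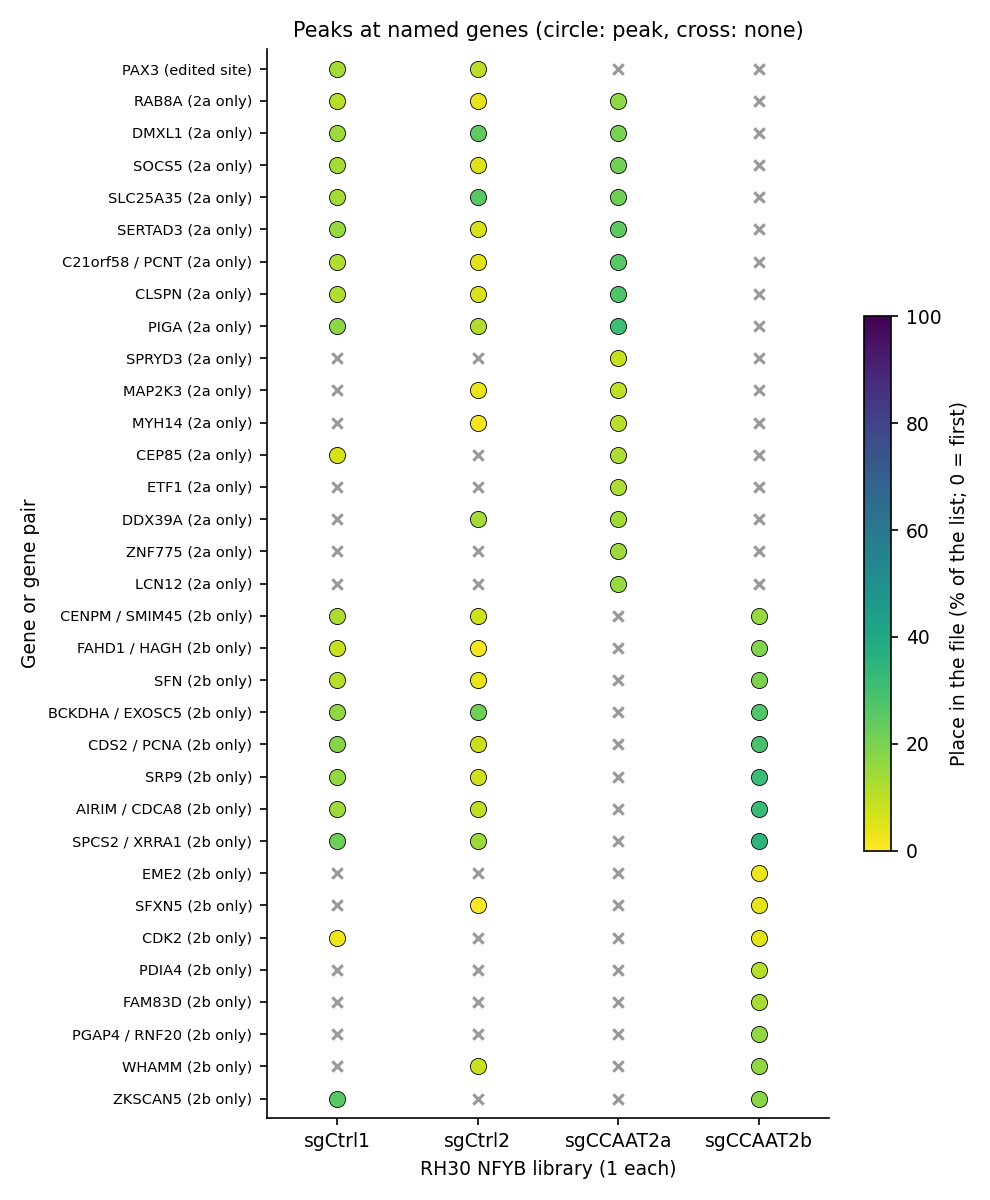
Peaks at PAX3 and at the 8 earliest member loci of each class (rows) in the 4 RH30 NFYB libraries (columns), where a circle is a peak coloured by its place in the file as a percentage of the list and a cross means no peak within 1000 bp of a gene end. By construction each member row has a circle in only 1 edited column, and PAX3 has circles in both controls only.

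Genes that only the sgCCAAT2a list held without both controls stood at a median place of 1361, against 1692 for those with both. Across the 69 genes, 23 had a peak in sgCtrl1 only, 23 in sgCtrl2 only and 23 in neither. SPRYD3 had its peak at chr12:53079363-53079515, at place 217 in sgCCAAT2a and in no control. ETF1, the translation termination factor, stood at place 313, ZNF775 at 358 and LCN12, a lipocalin gene, at 386, also in no control.
Peaks at all 4 were present in both RH4 lists. MAP2K3, an upstream kinase of p38, stood at place 248 in sgCCAAT2a and 208 in sgCtrl2. MYH14, a non-muscle myosin heavy chain gene, stood at places 264 and 111 in the same libraries, and DDX39A, an RNA helicase gene, at 339 and 899. CEP85, a centrosomal protein gene, stood at place 309 in sgCCAAT2a and 239 in sgCtrl1.

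Of the 43 genes that only the sgCCAAT2b list held without both controls, 18 had a peak in sgCtrl1 only, 11 in sgCtrl2 only and 14 in neither. PDIA4, a disulfide isomerase of the endoplasmic reticulum, had its peak at chr7:149028644-149028806, at place 280, and no control peak. FAM83D, a spindle-associated protein gene, stood at place 337, also without a control peak. So did the divergent pair PGAP4 and RNF20, the latter a histone H2B ubiquitin ligase, at place 425. Peaks at PDIA4, FAM83D and this pair were present in both RH4 lists.
SFXN5, a mitochondrial sideroflexin gene, stood at place 108 in sgCCAAT2b and 41 in sgCtrl2. WHAMM, an activator of actin nucleation, stood at places 426 and 546 in the same libraries. ZKSCAN5, a zinc finger gene, stood at place 451 in sgCCAAT2b and 1042 in sgCtrl1.
The remaining early loci arose at the window edge. At EME2 (place 75) and CDK2 (place 124) the sgCCAAT2b peak overlapped a sgCCAAT2a peak by 133 and 137 bp, and only the sgCCAAT2b peak reached the window. Such edges accounted for 4 of the 43 genes, and for 2 of the 69 on the sgCCAAT2a side.

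The gene groups known for NF-Y promoters held few genes each, and whether they differed from all genes was not tested. Beside each count stands the background over all genes with both controls. Of these, 66.3% had both edited peaks, 3.81% were sgCCAAT2a-only and 8.28% sgCCAAT2b-only. Of 16 endoplasmic reticulum folding and stress genes with a peak in both controls, 13 had peaks in both edited lists, XBP1 and PDIA3 in sgCCAAT2a only and DNAJB9 in sgCCAAT2b only.
XBP1 encodes a transcription factor of the unfolded protein response, and its peak stood at place 974 in sgCCAAT2a, 1136 in sgCtrl1 and 812 in sgCtrl2. DNAJB9, a co-chaperone gene that shares its peak with THAP5, stood at place 971 in sgCCAAT2b, 983 in sgCtrl1 and 1064 in sgCtrl2. PDIA3, a disulfide isomerase gene, stood late, at place 1804 in sgCCAAT2a.

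Of 13 genes of cholesterol and fatty acid synthesis with both controls, 10 had both edited peaks, none was sgCCAAT2a-only, and 2 were sgCCAAT2b-only, FASN among them. FASN, fatty acid synthase, stood at place 1661 in sgCCAAT2b, 1576 in sgCtrl1 and 1268 in sgCtrl2. LSS, lanosterol synthase, was held by sgCCAAT2a (place 1384) and sgCtrl1 (place 795) only.

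Of 11 S and G2/M cell cycle genes with both controls, 10 had both edited peaks and CCNB1, the mitotic cyclin B1, was sgCCAAT2b-only. The CCNB1 peak at chr5:69167014-69167176 stood at place 1173 in sgCCAAT2b, 1678 in sgCtrl1 and 1391 in sgCtrl2. BUB1, a spindle checkpoint kinase gene, was held by sgCCAAT2a (place 492) and sgCtrl1 (place 457) and by neither sgCCAAT2b nor sgCtrl2. The 4 NF-Y subunit and partner genes with both controls had peaks in both edited lists.

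In the serine and one-carbon group, 5 of 7 genes with both controls had both edited peaks, and SHMT1, a serine hydroxymethyltransferase gene, was sgCCAAT2a-only (place 922, with 627 in sgCtrl1 and 360 in sgCtrl2). Of 5 myogenic genes with both controls none had both edited peaks, and 4 had neither. Among reported PAX3-FOXO1 targets, ABAT, the GABA transaminase gene, was held in RH30 by sgCCAAT2a only (place 1225), with no control peak. Both RH4 lists had a peak at ABAT. The clock gene CRY2 was held by sgCCAAT2a (place 600) and sgCtrl2 (place 346).

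The large families are set beside the 66.3% of all 2259 genes with both controls that had both edited peaks. Of 26 replication-dependent histone genes with both controls, 25 had both edited peaks and none was held by 1 edited list alone. Of 98 ZNF genes, 68 had both edited peaks, 5 were sgCCAAT2a-only (5.10%) and 7 sgCCAAT2b-only (7.14%), near the shares over all genes. Of 14 cytosolic ribosomal protein genes, RPLP1 was sgCCAAT2b-only, and of 13 oxidative phosphorylation genes COX6B1 was, with 11 genes of each group in both edited lists. Of 11 histone deacetylase and lysine methyl genes, KMT5B was sgCCAAT2a-only and 9 were in both. No gene with both controls was held by 1 edited list alone among 9 DNA repair, 10 mitochondrial ribosomal, 6 proteasome, 12 translation factor, 2 BCL2 family and 2 heat shock genes. MHC class II, blood cell and liver cell genes had no peak in both controls and none in either edited list.

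Whether the missing peak was also low in tags was read from the authors' deposited tables, which list sgCtrl2 peaks at least 2.5-fold higher than another library at a Poisson p of 0.001. Both tables share the sgCtrl2 library, so they are given side by side. Over all 6687 sgCtrl2 peaks, the authors' deposited tables listed 61.9% as higher than sgCCAAT2a and 60.7% as higher than sgCCAAT2b, with 9.44% listed over sgCCAAT2a alone and 8.25% over sgCCAAT2b alone. Over the 2594 sgCtrl2 peaks that sgCtrl1 shared, the authors' deposited tables listed 12.0% over sgCCAAT2a alone and 5.05% over sgCCAAT2b alone.

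Most member losses were not one-sided by that measure. Of 221 sgCtrl2 peaks that sgCtrl1 and sgCCAAT2b shared and sgCCAAT2a lacked, the authors' deposited tables listed 60 (27.1%, 21.4 to 33.5%) over sgCCAAT2a alone, 6 over sgCCAAT2b alone, 83 over both and 72 over neither. Of 119 such peaks that sgCCAAT2a shared and sgCCAAT2b lacked, the authors' deposited tables listed 17 (14.3%, 8.55 to 21.9%) over sgCCAAT2b alone, 9 over sgCCAAT2a alone, 41 over both and 52 over neither. For comparison, peaks held by both edited lists were listed over sgCCAAT2a alone in 10.7% and over sgCCAAT2b alone in 3.36% of 1665 cases, by the authors' deposited tables. The tables use the same libraries as the peak lists, so they are no independent measure.

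**Figure D4:**
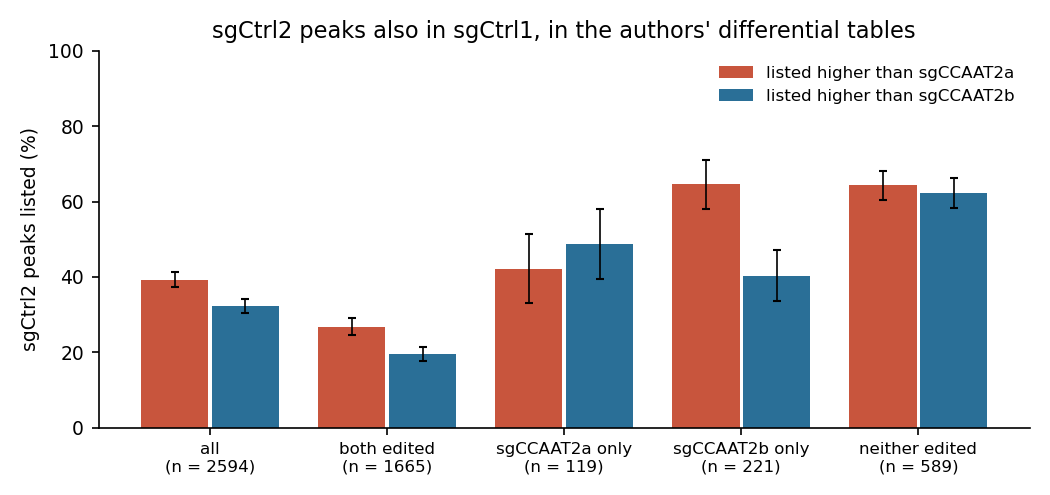
Percent of sgCtrl2 peaks also in sgCtrl1 (vertical axis) that the authors' deposited tables list as higher than sgCCAAT2a (red) or sgCCAAT2b (blue), by presence in the edited lists, with exact 95% intervals for counting error. Peaks held by sgCCAAT2b only were listed over sgCCAAT2a in 64.7% and over sgCCAAT2b in 40.3%, and peaks held by sgCCAAT2a only in 42.0% and 48.7%.

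By the authors' deposited tables, the earliest one-sided sgCCAAT2b loci were PCNA with CDS2, CEP192 (centriole assembly), ASL (the urea cycle enzyme argininosuccinate lyase), PRDM7, TECPR1 and DAPK3 (a protein kinase). Their sgCtrl2 peaks stood at places 561, 911, 937, 966, 1025 and 1048, and their sgCCAAT2b peaks at 731, 1068, 1132, 1204, 1309 and 1375. CCNB1 was listed over sgCCAAT2a and not over sgCCAAT2b in the authors' deposited tables as well.
On the other side, the authors' deposited tables listed SEMA4F (a semaphorin), RELB (an NF-kappa-B subunit), C1orf174, PPFIBP1, SIX2 (a homeobox gene) and TNRC18 over sgCCAAT2b alone. Their sgCCAAT2a peaks stood at places 1066, 2106, 1649, 1216, 1817 and 1879. At SOCS5, PCNT and CLSPN the authors' deposited tables listed the sgCtrl2 peak over sgCCAAT2a alone, although sgCCAAT2a was the edited library with a called peak. For XBP1 the authors' deposited tables listed the sgCtrl2 peak over neither edited library, and for HAGH over both.

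CCAAT or ATTGG was searched on both strands in RefSeq promoters from 250 bases before to 50 after the start, which 15843 of the 20037 genes had. The motif stood in 36.4% of all these promoters. Among genes with both controls, it stood in 78.3% (66.7 to 87.3%) of 69 sgCCAAT2a-only, 76.0% (68.4 to 82.5%) of 154 sgCCAAT2b-only, 84.9% (82.9 to 86.8%) of 1301 doubly edited-list and 67.2% (62.4 to 71.8%) of 406 promoters with no edited peak.
The member shares lay between those of genes with peaks in both edited lists and in none. However, the sgCCAAT2a-only interval held both of those shares, and the sgCCAAT2b-only interval overlapped that of genes with none. With 2 or more motifs the shares were 42.0% (30.2 to 54.5%) for sgCCAAT2a-only and 39.0% (31.2 to 47.1%) for sgCCAAT2b-only. They were 58.3% (55.6 to 61.0%) for both edited lists and 23.6% (19.6 to 28.1%) for neither, against 12.5% of all promoters. Without both controls, 72.9% (59.7 to 83.6%) of 59 sgCCAAT2a-only and 53.1% (34.7 to 70.9%) of 32 sgCCAAT2b-only promoters held the motif. Where the edited peak itself overlapped the promoter, the motif was present in 48 of 52 and 110 of 121 promoters with both controls, and in 39 of 43 and 12 of 16 without. Edited peaks within 1000 bp of the start had a median centre at -76.5 bp for sgCCAAT2a-only and at -100 bp for sgCCAAT2b-only genes with both controls.

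**Figure D5:**
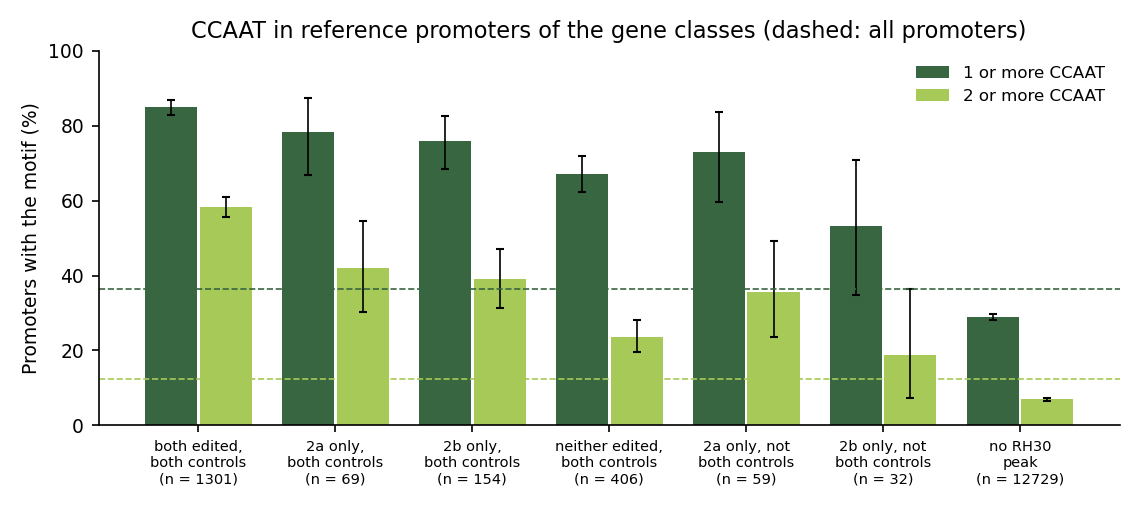
Percent of reference promoters (vertical axis) with 1 or more (dark) or 2 or more (light) CCAAT motifs on either strand, by gene class, with exact 95% intervals for counting error and dashed lines for all promoters (36.4% and 12.5%). Both member classes with both controls (78.3% and 76.0%) lie below genes with a peak in all 4 lists (84.9%) and above those in neither edited list (67.2%), although the sgCCAAT2a-only interval spans both.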

How the data were processed

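Peaks were called by the authors for each library with HOMER findPeaks over an input directory, per the file headers (4-fold over the surrounding 10000 bp, 2-fold over input), on hg38; FastQC, Trimmomatic, Bowtie2, MACS2, bedtools and deepTools are also named in the submitters' processing notes. The deposited score column holds 1 for every peak. The authors' deposited differential tables (fold 2.5, Poisson p-value 0.001) list sgCtrl2 peaks. File order followed the numbers in HOMER's peak names within chromosomes (median Spearman 0.940 to 0.983).

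Overlap (1 bp), gene windows (RefSeq GRCh38.p14, 1000 bp either side of a gene end), places and motifs were computed in Python 3.11.15 with scipy 1.17.1. Overlap counts were checked against bedtools 2.31.1 and on simulated lists (50 of 50 counts right). Members and the 22 gene lists were chosen with earlier results of these data known. Named genes were the 8 loci per class earliest in the file, 6 loci per direction listed over 1 edited library in the tables, list members, and the 3 smallest gaps and overlaps; RBM15, KMT5C and EVI5L in the account of early peaks and the sequences shown were chosen after their values were seen. No comparison had replicates, so none was tested; alternatives changed the overlap, the gene window, the list length and the chromosomes used. The RH4 consensus list was not used here. Some loci that these rules name are not reported here.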

Additional observations from a re-analysis of the deposited data

How the results depend on the processing

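Of 66 alternative values, 57 stayed within 1.5 times the count, or within the interval of the share, and 9 moved. Keeping the first 50% of each list gave 68 sgCCAAT2a-only and 145 sgCCAAT2b-only peaks with both controls, 73 and 50 without, and 50 sgCCAAT2a-only genes with and 41 without both controls. Restricting genes to their transcription start gave 26 sgCCAAT2b-only genes without both controls. With edited lists of equal length, 53.0% of sgCCAAT2b-only peaks lay at gene ends and 59.0% overlapped an RH4 NFYB peak, against 46.1% and 50.4% before. The same shares of sgCCAAT2a-only peaks were 43.1% and 45.4%, against 46.1% and 47.9%, and stayed within their intervals. The ratio of sgCCAAT2b-only to sgCCAAT2a-only peaks with both controls ran from 1.61 (overlap of at least 50% of both peaks) to 2.13 (first 50% of each list), and that of genes from 2.08 to 2.62. Without both controls the peak ratio was 1.01 but 0.68 in the first 50% of each list and 0.65 with equal lengths (1.01 to 1.09 in the other alternatives). The gene ratio ran from 0.46 to 0.85. No paired analysis was possible because each guide had 1 library, and with 1 library the spread between cultures is unknown.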

Other observations

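Chromosomes 2 and 17 were the autosomes with more sgCCAAT2a-only than sgCCAAT2b-only peaks. On chromosome 2, 27 of its 150 sgCCAAT2a peaks (18.0%, 12.2 to 25.1%) and 14 of its 137 sgCCAAT2b peaks (10.2%, 5.70 to 16.6%) were members. On chromosome 17, 33 sgCCAAT2a and 31 sgCCAAT2b peaks were. The intervals of chromosome 2 overlap, and both chromosomes were singled out after their values were seen. Chromosome 19 held the most members, 36 of 285 sgCCAAT2a (12.6%) and 53 of 302 sgCCAAT2b (17.5%) peaks, shares below those of the whole lists (14.2% and 17.8%).

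The imprinted pair PEG3 and ZIM2 had a sgCCAAT2b peak (place 633) that overlapped a sgCtrl1 peak (place 397), with the nearest sgCCAAT2a peak 334 bp away. NCAPD3, a condensin subunit gene next to VPS26B, had a sgCCAAT2b peak at place 1773, 311 bp from the nearest sgCCAAT2a peak, in no control list.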
